A study of Oryzias latipes with 6 samples.

Results

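The genes described here are the histones of the medaka (Oryzias latipes, a small laboratory fish) as they were read in testis RNA. They were taken from 24365 listed genes by their descriptions: protein-coding genes whose description names histone H1, H2A, H2B, H3, H4 or macro-H2A, without the words for histone-modifying enzymes, chaperones or binding proteins. This rule found 72 genes. Of these, 66 carry a histone's name, 12 in the H1 class, 16 in H2A, 8 in H2B, 17 in H3, 11 in H4 and 2 in macro-H2A. The other 6 are no histones but match on a word: hinfp and zgc:112083 (described as or matched to the histone H4 transcription factor), alkbh1 (a dioxygenase), shprh (a helicase with a linker-histone domain), and sos1 and sos2 (activators of Ras).

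Testes of nphp4 mutant fish (nphp4-/-, a knockout per the series design) gave 3 libraries and testes of wild-type fish gave 3, each from 2 pooled fish. Strain, age and the lesion in nphp4 are not described in the labels used here. The libraries held 13438879 to 16054354 reads on genes. Levels are in FPKM, fragments scaled to gene length and to a total for each library. The targeted gene nphp4, which encodes a protein at the base of cilia, had 6.84, 7.001 and 10.9 FPKM in the mutant libraries. In the wild-type libraries it had 17.1, 23.5 and 12.2 FPKM. All mutant values lay below all wild-type values, with a log2 difference of -0.99 (SE 0.27, adjusted p = 0.436, limma). Of 10 spermatocyte marker entries, 4 matched a gene. None of the 4 was at 0, and their summed level was 1340 to 1637 FPKM in mutant and 1164 to 1559 FPKM in wild-type libraries. Among them dmc1 was without overlap, and the others overlapped. It had 201, 265 and 224 FPKM in mutant and 176, 169 and 155 FPKM in wild-type libraries (log2 difference 0.46, adjusted p = 0.464, limma). Of all genes tested, 14.0% had no overlap. Wild type 3 stood apart in its content of digestive-organ RNA: 7 pancreas and gut genes summed to 251, 2234 and 2324 FPKM in mutant libraries and 1002, 1227 and 16347 FPKM in wild-type libraries. It stood apart in scale too. The total inside its FPKM values was 13693794, below its 15516979 reads on genes, and in the other libraries that total was above the reads. Relative to the other libraries, its FPKM values are thus higher than with reads on genes as the scale.

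Core histones H2A, H2B, H3 and H4 form the protein spool on which DNA is wound, and H1 binds where DNA enters and leaves the spool. Replication-dependent histone genes are typically short, lack introns, lie in clusters and are used in S phase, and in animals their messages end in a stem-loop bound by SLBP rather than in a poly(A) tail. Variants such as H2A.Z, H3.3, H2AX, CENP-A and macro-H2A are encoded by genes that stand alone, are often polyadenylated, and are deposited in places or at times of their own. In the testis, variants are exchanged during meiosis and spermatid maturation, before protamines or sperm-type histones pack the DNA in many animals.

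The histone genes fell into 2 sets far apart in level. In one set were 11 genes with means over the 6 libraries of at least 71.6 FPKM, and none of their single values was below 62.5 FPKM. The other 55 genes had means of at most 2.76 FPKM, and none of their single values exceeded 5.02 FPKM. No histone gene lay between; the line of 50 FPKM used here was drawn after the levels were seen. The abundant set held 10 of the 16 genes that are named variants, and its only other gene was the H1 gene si:ch211-103n10.5. The abundant set made up 98.7%, 98.7% and 99.0% of the summed histone FPKM in mutant libraries and 99.2%, 99.1% and 98.5% in wild-type libraries. The ranked plot of levels shows the gap.

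**Figure D1:**
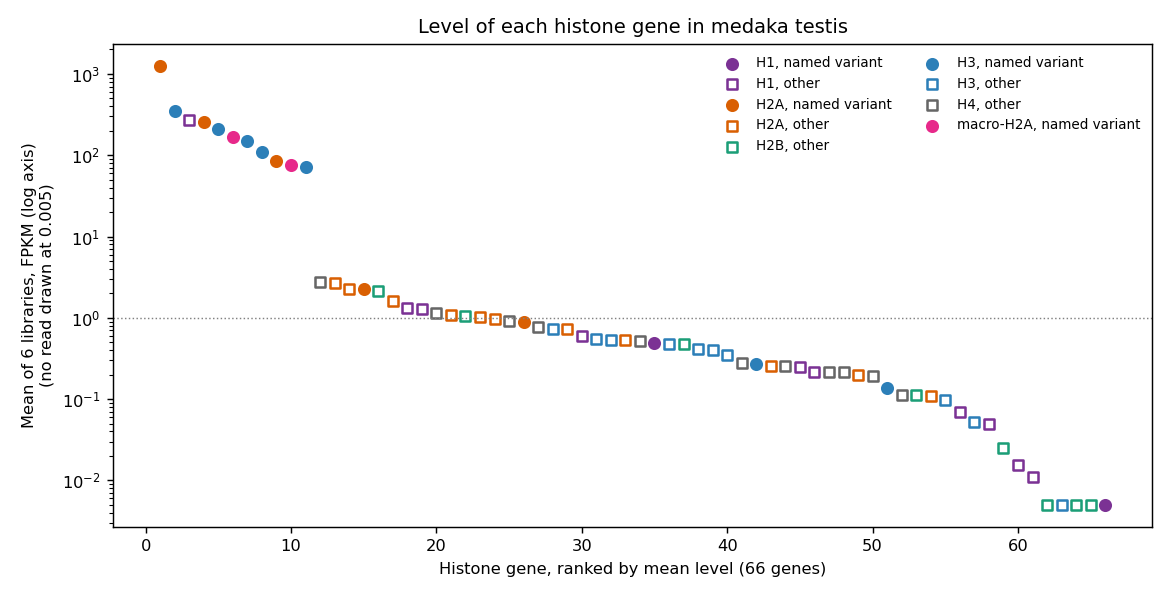
Mean FPKM over the 6 libraries (log axis) of each of the 66 histone genes, ranked from high to low; filled circles are named variants, open squares are other histones, and the dotted line marks 1 FPKM. The 11 genes on the upper left lie at 71.6 FPKM or more, and the next gene lies at 2.76 FPKM.

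The counts behind the low set were small. Its genes had a median of 12 reads over all 6 libraries together and at most 142, and 5 histone genes had no read in any library. Their median length was 405 bases, against 1497 bases in the abundant set, and on a gene of 400 bases 1 read was worth 0.150 to 0.183 FPKM. Whether the library kit selected polyadenylated RNA is not given in the sources used here, nor is the treatment of reads that map to several near-identical copies. The part of either in the low levels was not tested. Counting by strand is not stated, and 33 of the 55 low genes overlap another listed gene, 22 of them on the other strand, against 3 of the 11 abundant genes with any overlap.

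H2A.Z, which marks promoters and replaces H2A at start sites, was the most abundant variant family. The gene h2afva (ENSORLG00000024700, chromosome 9, 1500850 to 1505276, plus strand; coordinates are as deposited, with no build named) had 1362, 1336 and 1177 FPKM in mutant libraries and 1299, 1286 and 1068 FPKM in wild-type libraries. It ranked 59 among all 24365 genes by mean level. The groups overlapped, and the log2 difference, on the log2(FPKM + 1) scale as everywhere below, was 0.09 (SE 0.12, 95% interval -0.20 to 0.37). It was -0.0042 without wild type 3. The deposited Swiss-Prot match of h2afva is Pur-beta, and its span overlaps purbb on the other strand, a gene at 7.49 to 11.03 FPKM. A second H2A.Z gene, ENSORLG00000022841 (chromosome 18, 29618413 to 29624882, minus strand), had 286, 320 and 235 FPKM in mutant and 262, 226 and 206 FPKM in wild-type libraries, a log2 difference of 0.27 (SE 0.15). The mutant libraries reached higher, but mutant 3 lay below wild type 1. h2afva supplied 80.7% to 85.1% of the H2A.Z FPKM in every library.

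H3.3, the H3 form laid down outside replication, came from 4 abundant genes. ENSORLG00000000314 (chromosome 19, 29834 to 30950, plus strand) led with 385, 374 and 363 FPKM in mutant and 313.6, 373 and 310.2 FPKM in wild-type libraries, and it overlaps ENSORLG00000029739 on the same strand. A pair of neighbours on chromosome 13 followed. ENSORLG00000028044 (17992240 to 17994436) was the steadiest of the abundant set, with 207, 208 and 208 FPKM in mutant and 231, 200 and 225 FPKM in wild-type libraries. ENSORLG00000024385 (17996287 to 18000034) had 119, 124 and 102 FPKM in mutant and 94.4, 115 and 108 FPKM in wild-type libraries. ENSORLG00000026243 (chromosome 14, 1945655 to 1948272) had the lowest level of the 4, with 84.3, 67.5 and 75.2 FPKM in mutant and 62.5, 67.1 and 72.7 FPKM in wild-type libraries. The last 3 genes carry the same NCBI gene number in the deposited table, so reads shared between them may be split uncertainly. In each of the 6 libraries the order of the 4 levels was the same. The log2 differences were 0.17, -0.07, 0.12 and 0.16 in the order named, with SE 0.10 to 0.13, and the groups overlapped in all 4.

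CENP-A, the H3 form that marks centromeres, was encoded by ENSORLG00000018301 (chromosome 12, 30352447 to 30358774). Its level was 167, 152 and 176 FPKM in mutant libraries and 148, 159 and 101 FPKM in wild-type libraries, and wild type 3 alone was below 140 FPKM. The log2 difference was 0.30 (SE 0.18, 95% interval -0.14 to 0.73), the largest among the 11 abundant genes, and it was 0.10 without wild type 3. As a share of all H3 FPKM, CENP-A made up 17.2%, 16.4% and 18.9% in mutant libraries and 17.4%, 17.4% and 12.3% in wild-type libraries. The 6 H3.3 genes together made up 82.2%, 83.2% and 80.6% in mutant libraries and 82.4%, 82.5% and 87.2% in wild-type libraries.

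H2AX, which is phosphorylated at DNA breaks and over the sex chromosomes of mammals at meiosis, came mainly from ENSORLG00000000686 (chromosome 14, 15235538 to 15240676), which overlaps phldb1a on the same strand. It had 86.5, 74.5 and 74.4 FPKM in mutant libraries and 79.4, 94.7 and 102 FPKM in wild-type libraries. The log2 difference of -0.22 (SE 0.14) was the lowest among the abundant genes, yet mutant 1 lay above wild type 1. The macro-H2A genes h2afy and h2afy2 encode H2A forms with a large extra domain, known from the silent X chromosome of mammals. h2afy had 165, 165 and 154 FPKM in mutant and 202, 176 and 150 FPKM in wild-type libraries. h2afy2 had 81.2, 73.6 and 84.3 FPKM in mutant and 82.9, 66.5 and 63.6 FPKM in wild-type libraries. Their log2 differences had opposite signs, -0.12 (SE 0.13) and 0.17 (SE 0.14), and both pairs of groups overlapped.

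The H1 FPKM read in these libraries came largely from 1 gene, si:ch211-103n10.5 (ENSORLG00000027969, chromosome 9, 9628131 to 9628673, Swiss-Prot match histone H1.5). It had 215, 236 and 358 FPKM in mutant libraries and 253, 307 and 242 FPKM in wild-type libraries, and it gave 96.8% to 99.3% of the H1 FPKM. Its coefficient of variation over the 6 libraries, 19.9%, was the highest of the abundant set. Mutant libraries held both its lowest and its highest value, and the means were 270.0 FPKM in mutant and 268 FPKM in wild-type testes (log2 difference -0.02, SE 0.21).

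**Figure D2:**
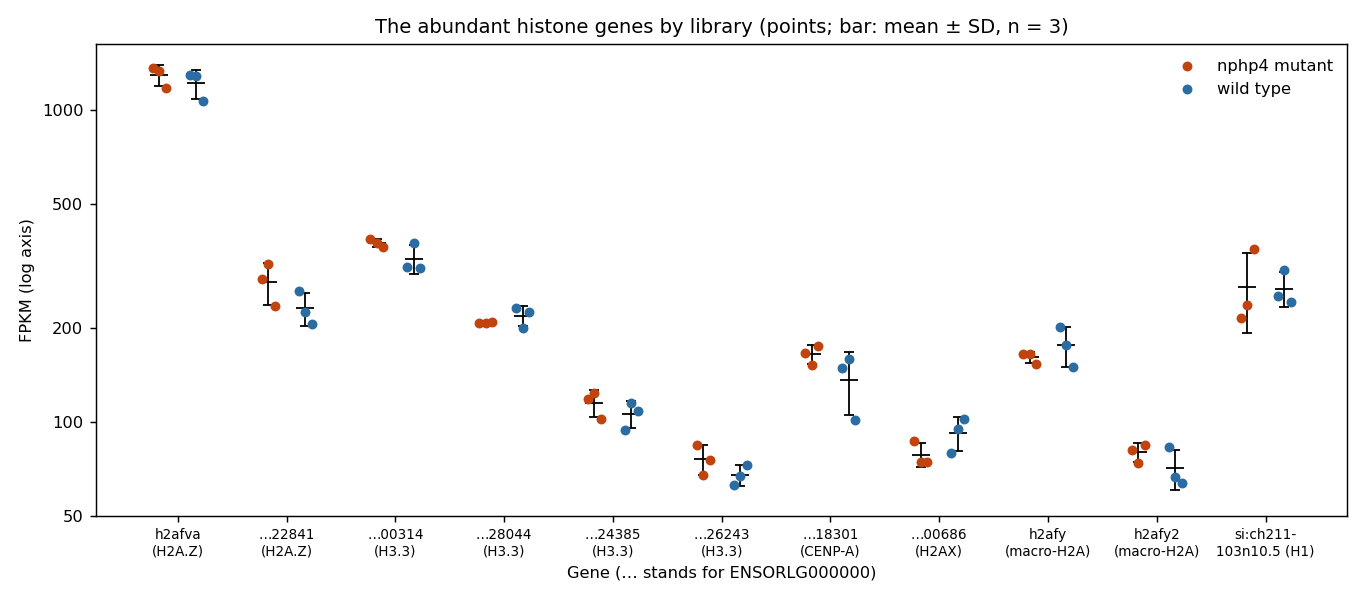
FPKM (log axis) of the 11 abundant histone genes, with 1 point per library, nphp4 mutant to the left of wild type for each gene, and bars for the mean ± SD (n = 3). The groups overlap for all 11 genes, with CENP-A lowest in 1 wild-type library at 101 FPKM.

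The other 6 variant genes were in the low set. The oocyte linker histone H1.8 (ENSORLG00000024434, chromosome 5, 5372605 to 5376296, described as protein B4, Swiss-Prot match histone H1.8) had 0.322, 0.517 and 0.131 FPKM in mutant libraries and 0.794, 0.503 and 0.651 FPKM in wild-type libraries, from 15, 23 and 7 mutant reads and 43, 25 and 29 wild-type reads. Mutant 2 lay just above wild type 2, and the gene's level was too low for the test. The 8 oocyte markers summed to 13.3, 10.1 and 13.2 FPKM in mutant and 23.0, 15.9 and 18.5 FPKM in wild-type libraries, and none of the 8 was at 0 in all libraries. In that list 4 of 5 tested genes had a negative and 1 a positive log2 difference, where 51.3% of all genes tested were positive. The largest term of the wild-type sums was mos, which averaged 3.55 FPKM in mutant and 10.2 FPKM in wild-type testes. btg4 went the other way, with 3.19 FPKM in mutant and 0.584 FPKM in wild-type testes. The part of oocytes in the level of H1.8 was not tested. In bulk RNA, fewer cells of a type and less RNA per cell cannot be told apart.

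Of the remaining low variants, ENSORLG00000000693 (H2AX match, chromosome 14, 2847578 to 2851345) had 1.82, 1.90 and 2.02 FPKM in mutant libraries and 3.41, 0.465 and 3.97 FPKM in wild-type libraries. The wild-type values lay on both sides of the mutant ones. The H3.3 genes si:ch211-231f6.6 and h3f3d, which overlap each other on opposite strands of chromosome 19, had at most 0.420 and 0.246 FPKM in any library. h1f0, the H1.0 gene known from resting cells, had no read in any library, where 3 reads would have been 0.310 to 0.371 FPKM in mutant and 0.305 to 0.371 FPKM in wild-type libraries (a floor that covers counting error only).

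No gene of the H2B or H4 classes was abundant. The 8 H2B genes summed to 7.14, 2.04 and 3.47 FPKM in mutant libraries and 2.06, 3.65 and 4.32 FPKM in wild-type libraries, and 3 of them had no read. The 11 H4 genes summed to 9.16, 7.53 and 5.85 FPKM in mutant libraries and 5.64, 5.04 and 11.04 FPKM in wild-type libraries. Both classes stood far below the H2A class, whose 16 genes summed to 1666 ± 145 FPKM in mutant and 1555 ± 142 FPKM in wild-type testes (SD, n = 3 each). The H3 class summed to 942 ± 22.4 FPKM in mutant and 863 ± 47.9 FPKM in wild-type testes, the H1 class to 275 ± 75.1 FPKM in mutant and 271 ± 35.0 FPKM in wild-type testes, and the macro-H2A pair to 241 ± 4.75 FPKM in mutant and 247 ± 35.7 FPKM in wild-type testes. Among the genes found by the rule, the H2B and H4 partners of the abundant H2A and H3 variants thus had few reads, 151 and 206 over all 6 libraries.

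Position went with level. 47 of the 66 histone genes lay in 8 blocks of at least 4 genes, with neighbours at most 100 kb apart. 6 of these blocks were on chromosome 1, where they held all 38 of its histone genes, and the other 2 were on chromosome 14. In 4 of the blocks, H1, H2A, H2B, H3 and H4 genes all lay together. No abundant gene was in such a block, and the highest mean inside one was 2.76 FPKM, that of the H4 gene ENSORLG00000027210 (chromosome 14, 21234245 to 21236569). The blocks held 2 variant genes, both H2AX matches. Outside the blocks were the 11 abundant genes and 8 low ones.

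The 38 genes of chromosome 1 summed to 24.1, 25.5 and 22.3 FPKM in mutant libraries and 13.4, 12.6 and 23.1 FPKM in wild-type libraries, from 137, 132 and 141 mutant reads and 85, 76 and 119 wild-type reads. Wild type 3 was within the mutant range, and the other wild-type libraries were below it. The block of 7 genes at 8894080 to 8929636 had 4.64, 4.52 and 5.22 FPKM in mutant and 1.02, 2.985 and 2.57 FPKM in wild-type libraries, without overlap. The block of 11 genes at 2116553 to 2217605 had 3.89, 3.39 and 3.54 FPKM in mutant and 2.77, 1.27 and 2.78 FPKM in wild-type libraries, also without overlap. In the other 6 blocks the groups overlapped. The 9 low genes of chromosome 14 summed to 13.5, 7.19 and 5.46 FPKM in mutant and 7.87, 6.89 and 12.0 FPKM in wild-type libraries, a spread within each group wider than the gap between them. The block at 8894080 rests on 7 to 34 reads per library and the block at 2116553 on 8 to 23. In reads the block at 2116553 overlapped, with 17 reads in mutant 2 and 18 in wild type 1. Of all single genes tested, 14.0% had no overlap and 7.55% had all mutant values on top. Both blocks were picked out after their values were seen and have no test.

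**Figure D3:**
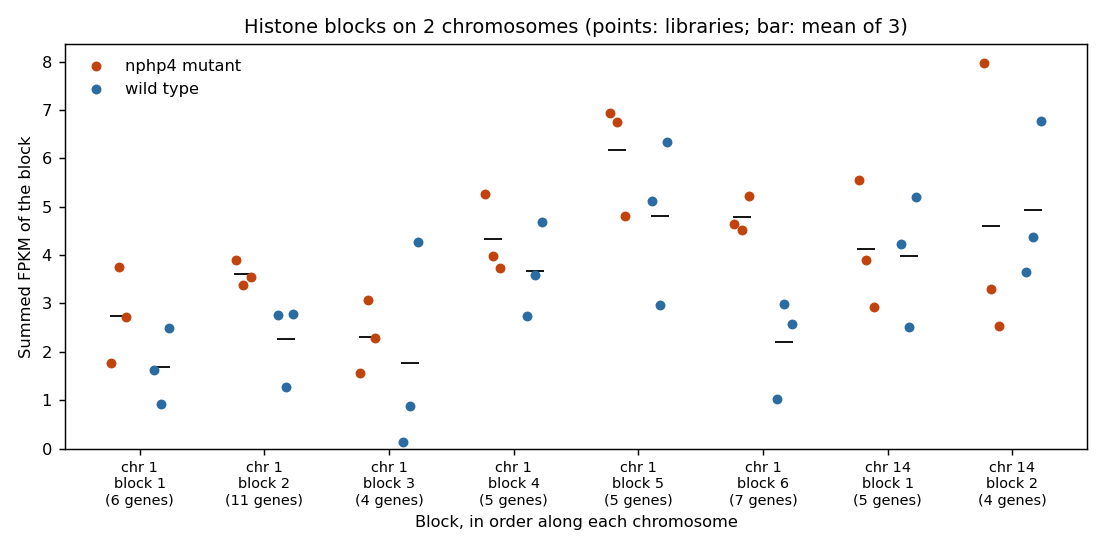
Summed FPKM of each of the 8 histone blocks on chromosomes 1 and 14, with 1 point per library, nphp4 mutant left of wild type, and bars for the mean of 3 libraries. Blocks 2 and 6 of chromosome 1 show mutant points above all wild-type points in FPKM, and the other 6 blocks overlap. In reads, block 2 overlaps too. Of all single genes tested, 7.55% had all mutant values on top.

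The comparison of mutant with wild-type testis asks which histone messages differ with nphp4. No histone gene passed the test. The test was a linear model in limma on log2(FPKM + 1) over the 15203 genes whose mean reached 1 FPKM in mutant or wild-type testes, at a Benjamini-Hochberg adjusted p below 0.05. Among all genes it called 9, or 0.0592%. Of the 72 genes found by the rule 34 were tested, of which 28 are histones, and 0 were called, with a smallest adjusted p of 0.623 in limma. At an unadjusted p below 0.05 there was 1 histone gene (3.57% of 28), higher in the mutant, where 7.13% of all genes tested lay below that value, 3.32% higher in the mutant. limma-voom on the whole reads behind the FPKM values called 0 genes of any kind and put 0 histones below an unadjusted p of 0.05. The p-values measure the spread between 3 pooled libraries of each group.

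Among the 11 abundant genes, the log2 difference was positive in 7 and negative in 4, with a median of 0.12, against a median of 0.0075 and 51.3% positive over all genes tested. Adjusted p-values of these 11 ranged from 0.801 to 0.990 in limma, and the groups overlapped in all of them. Wild type 3 was the lowest of the 6 libraries for 6 of the 11 genes, where it was the lowest for 29.4% of all genes tested, and the highest for 1. Without it, 6 of the 11 differences were positive and their median was 0.10.

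Of the 17 low histone genes tested, 6 passed the filter on level through the mutant group alone and 1 through wild type alone, so their signs were in part set by the filter and are not read as support. The gene with the smallest p was si:ch211-113a14.19 (H2AX match, chromosome 1, 8896657 to 8898783). It had 1.74, 0.663 and 1.802 FPKM in mutant libraries and 0.273, 0.446 and 0.331 FPKM in wild-type libraries, from 35 reads in all. Every mutant value lay above every wild-type value, with a log2 difference of 0.79 (SE 0.29, unadjusted p = 0.0297, adjusted p = 0.623, limma). In reads, mutant 2 had 4 and wild type 2 had 3.

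The groups were also apart in FPKM in ENSORLG00000025490, an H3 gene of chromosome 1 (1240871 to 1241924). It had 0.685, 1.91 and 0.999 FPKM in mutant libraries and 0.589, 0 and 0.239 FPKM in wild-type libraries (log2 difference 0.77, adjusted p = 0.701, limma). Its reads were 3, 8 and 5 in mutant and 3, 0 and 1 in wild-type libraries. In reads, mutant 1 and wild type 1 were thus equal. HIST1H4G (1 of many), an H4 gene of the same chromosome (2119392 to 2122134), had 1.12, 1.35 and 0.984 FPKM in mutant and 0.553, 0.603 and 0.839 FPKM in wild-type libraries. These 3 were the histone genes without overlap in FPKM among the 28 tested (10.7%), where 14.0% of all genes tested had no overlap and 7.55% had all mutant values on top, and each of them passed the filter through the mutant group alone. All 3 lie in blocks of chromosome 1, si:ch211-113a14.19 in that at 8894080 and HIST1H4G in that at 2116553. Their reads are thus also part of the block sums. ENSORLG00000027891, an H4 gene at 8929325 to 8929636 on chromosome 1, overlapped, with 0.896, 1.41 and 0.980 FPKM in mutant and 0, 0.420 and 0.936 FPKM in wild-type libraries.

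Other low genes, the highest of their classes, varied widely between libraries of 1 group. ENSORLG00000027210 (H4) had 3.97, 1.56 and 1.30 FPKM in mutant and 2.56, 3.02 and 4.14 FPKM in wild-type libraries. ENSORLG00000029583 (H2B, chromosome 1, 3752461 to 3752835) had 4.29, 0.975 and 1.79 FPKM in mutant and 1.12, 2.97 and 1.56 FPKM in wild-type libraries. In both the range of values within each group was wider than the gap between the means. The H2B gene ENSORLG00000023073, the H1 gene ENSORLG00000011785 and the H4 gene hist1h4l (ENSORLG00000024877) had log2 differences of -0.18, 0.29 and 0.22 with SE 0.37, 0.33 and 0.29.

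**Figure D4:**
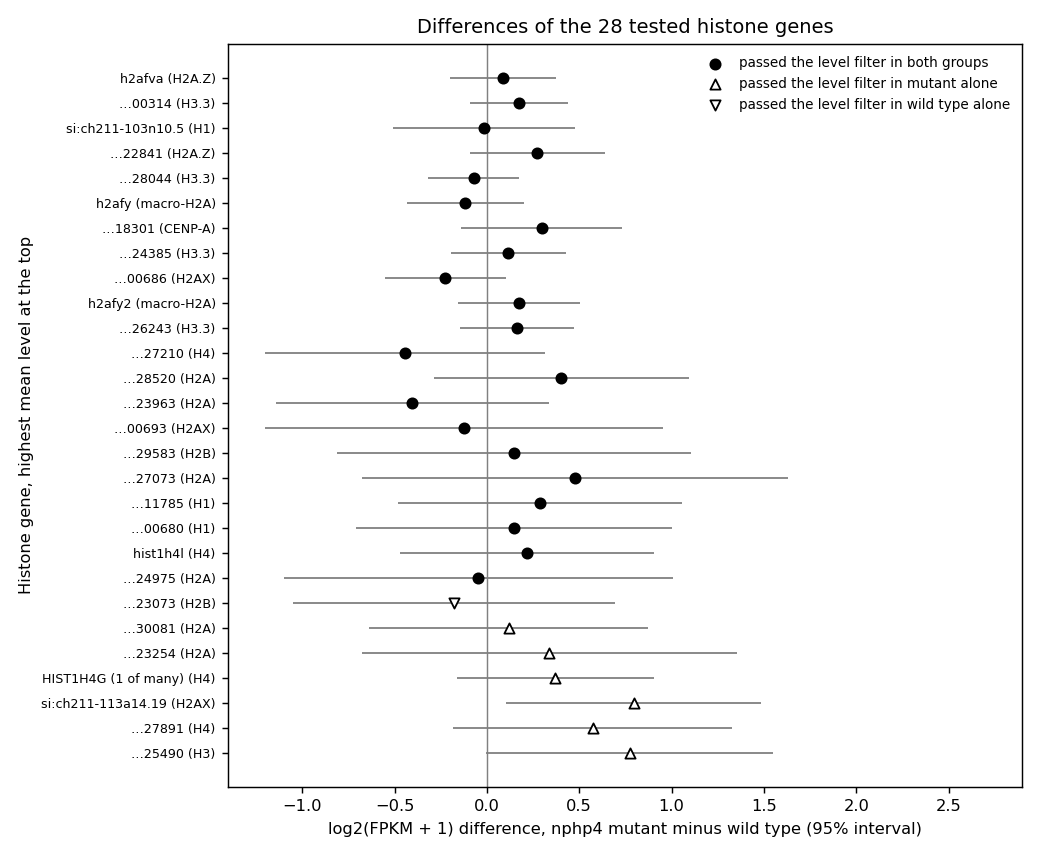
Log2 difference of log2(FPKM + 1), nphp4 mutant minus wild type, with its 95% interval, for the 28 tested histone genes, ordered from the highest mean level at the top; triangles mark genes that passed the filter on level through 1 group alone. Intervals are wider for the low genes than for the abundant ones. 1 of them does not reach 0, that of si:ch211-113a14.19, which passed the filter through the mutant group alone.

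The H3 genes that are no named variant, 10 in number, summed to 5.66, 4.58 and 4.79 FPKM in mutant libraries and 1.69, 0.921 and 4.10 FPKM in wild-type libraries. These sums stand for 29, 19 and 27 mutant reads and 9, 5 and 19 wild-type reads. In FPKM the groups did not overlap, where 14.0% of all single genes tested had no overlap. In reads, mutant 2 and wild type 3 were equal at 19. The highest wild-type library was close to the lowest mutant one, and the sum was picked out after its values were seen. These 10 genes lie in the blocks described above, most of them on chromosome 1, and include ENSORLG00000025490. The sum thus uses reads already counted there. The whole low set of 55 genes overlapped, with 42.8, 39.8 and 30.0 FPKM in mutant and 24.8, 27.2 and 39.7 FPKM in wild-type libraries. For comparison, the 99 snRNA genes, another class of short transcripts that end without a poly(A) tail, summed to 18.5, 13.1 and 15.9 FPKM in mutant libraries. In wild-type libraries they summed to 21.5, 22.7 and 19.2 FPKM, all above the mutant values. They rest on 41, 29 and 35 mutant reads and 51, 50 and 39 wild-type reads. In reads, mutant 1 was above wild type 3. The part of RNA selection in these levels was not tested.

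The 6 genes that match the rule without being histones were all tested, and none was called. Their log2 differences were all positive, 0.07 to 0.28, where 51.3% of all genes tested were positive. Wild type 3 was the lowest library for zgc:112083, alkbh1, shprh and sos2. The groups were without overlap in alkbh1 and shprh, where 14.0% of all genes tested had no overlap. sos1 had 14.1, 13.7 and 16.9 FPKM in mutant libraries and 10.3, 14.8 and 11.4 FPKM in wild-type libraries (adjusted p = 0.810, limma). zgc:112083 averaged 24.3 ± 2.66 FPKM in mutant and 23.0 ± 2.55 FPKM in wild-type testes, and hinfp averaged 6.32 ± 0.288 FPKM in mutant and 5.97 ± 0.596 FPKM in wild-type testes (SD, n = 3 each).

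Other genes act on histones before and after they reach the DNA. 4 lists covered transcription and 3'-end processing of histone RNA, chaperones, S phase and sperm chromatin, and 76 of their 78 genes were tested. None was called, 60 had a positive and 16 a negative log2 difference, and 3 (3.95%) had an unadjusted p below 0.05, where 7.13% of all genes tested did and 51.3% of all genes were positive. The groups were without overlap in 10 of the 76 (13.2%), against 14.0% of all genes tested. Wild type 3 was the lowest of the 6 libraries for 53 of the 76 genes (69.7%), against 29.4% of all genes tested. Without it, an alternative chosen after the data were seen, 46 were positive and 30 negative (60.5% positive, against 52.5% of all genes), with a median log2 difference of 0.02 in place of 0.12. Leaving out the wild-type library that is lowest for a gene always lowers its log2 difference. The direction of this shift was thus set in advance, here and for each list below, and is not read as support. slbp, the stem-loop binding protein of histone messages, had 106, 113 and 97.9 FPKM in mutant and 114, 94.6 and 91.4 FPKM in wild-type libraries. npat, the coactivator at histone clusters, had 7.27, 7.79 and 12.1 FPKM in mutant and 9.71, 12.7 and 6.32 FPKM in wild-type libraries. Both overlapped, with log2 differences of 0.08 and -0.06.

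In the processing list 8 of 10 tested genes were positive, where 51.3% of all genes tested were. The median log2 difference was 0.09 (6 of 10 and 0.06 without wild type 3). cpsf3, the nuclease that cuts the 3' end, had 55.6, 54.0 and 54.6 FPKM in mutant and 45.2, 53.3 and 34.4 FPKM in wild-type libraries, and ERI1, an exonuclease that trims histone messages, averaged 17.3 ± 3.61 FPKM in mutant and 13.5 ± 1.37 FPKM in wild-type testes (SD, n = 3 each). The wild-type values of cpsf3 were all lower, and those of ERI1 overlapped. Their adjusted p-values were 0.782 and 0.787 in limma. slbp2, a second gene with the SLBP name, is given here after its values were seen. It had 0.924, 0.541 and 0.873 FPKM in mutant and 1.91, 1.35 and 1.04 FPKM in wild-type libraries, without overlap. Its log2 difference of -0.44 was the lowest of the list (adjusted p = 0.787, limma). The gene passed the filter on level through wild type alone.

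Of the histone chaperones tested, 23 of 26 had a positive log2 difference, where 51.3% of all genes tested did. Their median was 0.19, and none was called. Wild type 3 was the lowest library for 18 of the 26, and without it 19 were positive and the median was 0.08. ASF1B, which hands H3 and H4 to the assembly factors, had 22.6, 22.8 and 20.2 FPKM in mutant libraries and 18.1, 14.4 and 13.0 FPKM in wild-type libraries. All its mutant values were above the wild-type ones, with a log2 difference of 0.51 (SE 0.16, unadjusted p = 0.0133, adjusted p = 0.488, limma). Its more abundant copy asf1bb, given here after its values were seen, had 164, 179 and 149 FPKM in mutant and 189.9, 172 and 149 FPKM in wild-type libraries, which overlapped, with a log2 difference of -0.05. NASP, a chaperone of H3 and H4 and of linker histones, had 49.1, 43.1 and 49.3 FPKM in mutant and 40.9, 39.8 and 25.7 FPKM in wild-type libraries (log2 difference 0.43, adjusted p = 0.747, limma). Like ASF1B, NASP was without overlap, and wild type 3 was its lowest library. In this list 4 of 26 tested genes (15.4%) had no overlap, where 14.0% of all genes tested had none.

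The S-phase list, 33 genes matched to entries for DNA replication, summed to 2359, 2294 and 2173 FPKM in mutant and 2418, 2097 and 2062 FPKM in wild-type libraries, against 24.8 to 42.8 FPKM for the 55 low histone genes. The entry rrm2 was matched to the gene named rrm2b, so rrm2 itself may not be covered. Of the 32 tested genes in the list 24 were positive and 8 negative, with a median of 0.10, where 51.3% of all genes tested were positive. Wild type 3 was the lowest library for 20 of them, and without it 17 were positive and 15 negative, with a median of 0.0027. rfc4, a subunit of the clamp loader, had 24.7, 23.8 and 23.5 FPKM in mutant and 29.6, 31.0 and 27.8 FPKM in wild-type libraries, without overlap and lower in the mutant (log2 difference -0.28, adjusted p = 0.684, limma). rrm1, the large subunit of ribonucleotide reductase, had 12.9, 16.3 and 9.45 FPKM in mutant and 10.1, 8.48 and 6.06 FPKM in wild-type libraries (log2 difference 0.59, adjusted p = 0.696, limma).

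Of the 12 entries for sperm chromatin remodelling, 7 matched a gene by name. The protamine entries prm1 and prm2 did not, nor did tnp1, tnp2 and chd5, so that step is not covered. Among the matched genes, 5 of 8 had a positive log2 difference, with a median of 0.06, where 51.3% of all genes tested were positive. Wild type 3 was the lowest library for all 8, and without it 4 were positive and the median was -0.0020. rnf8, a ubiquitin ligase that acts on H2A and H2B in mouse spermatids, had 47.1, 41.2 and 41.3 FPKM in mutant and 37.9, 39.9 and 35.7 FPKM in wild-type libraries (log2 difference 0.19, adjusted p = 0.819, limma). epc1a, a subunit of the NuA4 acetyltransferase, had 11.4, 8.54 and 11.03 FPKM in mutant and 8.61, 10.4 and 6.85 FPKM in wild-type libraries and overlapped.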

How the data were processed

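The authors deposited FPKM values and gene lengths. Tools named in the submitters' processing notes are featureCounts 1.5.0-p3, HISAT2 2.0.5, DESeq2 1.20.0, fastp and CASAVA 1.8. Genome build, strand setting and RNA selection are not given in the sources used here. Multiplied by gene length, all deposited FPKM values are whole multiples of 1 read within 0.01 read, and these reads served limma-voom. Mutant and wild type were compared by limma 3.58.1 (R 4.3.3; trend, robust) on log2(FPKM + 1), for genes whose mean reached 1 FPKM in mutant or wild type, at an adjusted p below 0.05. Differences are mutant minus wild type, and low genes' changes are understated.

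Named histones were the 2 most abundant of each class, all variants and the 8 with the smallest p; named pathway genes were slbp, npat and the 2 with the smallest p of each of 4 lists. Other genes were chosen after their values were seen. Members and lists were chosen with earlier results of these data known. Of 91 list entries, 76 matched a gene. The fit was tested on simulated data. The alternatives were another pseudocount, other filters and scalings, limma-voom, a replicate block and leaving out each library.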

Additional observations from a re-analysis of the deposited data

How the results depend on the processing

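No histone gene was called under any of the 13 alternatives, and the smallest adjusted p of a gene found by the rule was 0.240 in limma, without the filter. That value belongs to the H4 gene ENSORLG00000028263, which had 3 reads in all, 1 in each mutant library. The number of all genes called, 9, became 14 with library totals as the scale and 0 with limma-voom (which had 1050 genes at an unadjusted p below 0.05), and was 2 to 18 with 1 library left out. The genes found by the rule at an unadjusted p below 0.05, 1 in the report, were 5 without the filter (of 67, 7.46%, against 7.12% of all genes), 0 with a minimum of 5 FPKM, 2 with TMM scaling, 2 with library totals, 0 with limma-voom, and 1 to 3 with 1 library left out. Their median log2 difference over the 34 tested was 0.16, against 0.0075 over all genes tested. It was 0.21 with library totals, which moved the median of all genes to 0.06, and 0.13 to 0.23 with 1 library left out. Of the 34, 6 histone genes passed the filter through the mutant group alone and 1 through wild type alone. Another 6 are no histones, all with a positive difference. The median is thus in part set by the filter and is not read as support. With the replicate number as a block, 6 genes were called, 0 of them histones, and 0 genes found by the rule had an unadjusted p below 0.05. After removal of the group means, same-numbered libraries correlated at 0.31, -0.562 and -0.419, and other pairs at -0.444 to 0.607. With 3 libraries in each group these values do not settle whether the numbers pair the libraries. The filters and the replicate block leave the log2 difference of a gene as it is, so those values could not change direction. Fits with 1 library left out share most of their libraries with the main fit. Of 273 values of the 22 named tested genes, these included, 259 kept their direction. Exceptions were h2afva (-0.0042 to 0.15 with 1 library left out), si:ch211-103n10.5 (0.039 with library totals, -0.24 to 0.13 with 1 library left out), ENSORLG00000000693 (0.0050 at a pseudocount of 0.1, 0.027 with limma-voom, -0.68 to 0.20 with 1 left out), ENSORLG00000029583 (-0.24 to 0.47), ENSORLG00000011785 (-0.0083 to 0.47), ENSORLG00000024877 (-0.014 to 0.46) and ENSORLG00000023073 (-0.41 to 0.029), the last 4 with 1 library left out. For these the cause was not tested. Depth limits the low set, whose genes had at most 142 reads in all.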
